A study of Sus scrofa with 8 samples.

Results

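The data compare 2 T cell populations sorted from porcine colostrum, the first milk: double positive T cells, which carry both CD4 and CD8, and CD8 single positive T cells, which carry CD8 and no CD4. They comprise 4 of the 8 samples of the series, chosen by their labels: 2 double positive samples and 2 CD8 single positive samples, 1 of each from each of 2 Large White x Landrace sows. The other 4 samples are the same populations from the blood of these sows. The labels give no treatment and no age for the sows. The series was designed to set colostral against blood T cells within each population, so the comparison below runs across the populations of the design. Per the labels, antibodies to these 3 proteins were used to sort mononuclear cells into CD3+CD4+CD8+ (double positive) and CD3+CD4-CD8+ (CD8 single positive) cells. Their RNA was amplified from 10 ng and all 4 colostral samples carried the same dye, Alexa Fluor 3. Titles of the double positive samples name both populations, so the design text and the sort were used to place them. With 1 sample a sow and population, the error is the spread between 2 sows, pooled for each gene over all 4 groups, blood included. The errors below are therefore not those of the colostral samples alone.

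In mice and humans, T cells that carry both CD4 and CD8 are mainly immature cells of the thymus. In the pig they are also a normal population of mature T cells outside the thymus, where they are helper T cells that have gained the alpha chain of CD8 with activation or memory. CD8 single positive T cells include the killer cells that carry CD8 as an alpha and beta pair and store perforin and granzymes in granules.

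All levels below are normalized log2 intensities of 1 probe for a gene, and all differences are log2 values of double positive minus CD8 single positive cells with the standard error (SE) of the limma fit, n = 2 per group. A gene counts as above background on an array when its probe exceeded the 95th percentile of the negative-control spots, which lay between 6.83 and 6.96 in the colostral samples, and the lowest value possible is the floor of 5.34. In the 4 colostral samples, 31.1% to 34.7% of the probes were above background, and the median intensity before normalization was 121 and 127 in the double positive and 118 and 133 in the CD8 single positive samples. The number of arrays limits the precision. Members of families with near-identical sequences, such as the granzymes, the CCL3 and CCL4 chemokines and HSP70.2, can share signal between probes. In sorted populations measured in bulk, fewer cells of a type and less RNA per cell cannot be told apart.

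CD8B, the beta chain of CD8, separated the colostral populations. It was at 5.99 and 5.94 in double positive cells of sow 1 and sow 2, against 9.58 and 9.84 in CD8 single positive cells. Both double positive values were below the detection threshold, so the difference is a bound, at least 6.89-fold lower (-3.74 ± 0.53 as measured; limma adjusted p = 0.0973), and a second probe of CD8B differed by -2.29. CD8A, the alpha chain, was above background in all 4 samples, at 7.60 and 7.51 in double positive cells and at 8.81 and 8.32 in CD8 single positive cells, a difference of -1.01 ± 0.52 (limma adjusted p = 0.738). The groups did not overlap for CD8A with this probe, as for 17.7% of all genes tested in this direction. Its 1 other probe was brighter in double positive cells, and the mean of both probes differed by 0.11.

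The tested probe of CD4 separated the colostral populations clearly in sow 1 alone. It was at 7.13 and 7.0 in double positive cells, just above the detection threshold, against 5.34 and 6.94 in CD8 single positive cells. The CD8 single positive value of sow 2 was almost as high as the double positive values, and the difference was 0.92 ± 0.65 (limma adjusted p = 0.869). A second, dimmer CD4 probe was at 7.81 and 6.90 in double positive cells, where 1 of 2 arrays was above background, against 5.55 and 5.37 in CD8 single positive cells, both below it, so it was higher in both sows (1.90). In blood the tested probe was at 9.72 and 8.41 in double positive cells and at the floor in both CD8 single positive samples. The difference between colostrum and blood in this contrast was -2.80 ± 0.92, with an unadjusted p of 0.0133 and an adjusted p of 0.997 in limma. The chains of CD3, the signalling part of the T cell receptor, were above background in all 4 samples: CD3D differed by -0.29 ± 0.51, CD3E by -0.35 ± 0.49, CD247 by -0.61 ± 0.64 and CD3G by -1.45 ± 0.79. CD3G was low in 1 sample, at 10.54 and 8.05 in double positive cells against 11.19 and 10.31 in CD8 single positive cells.

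Over all genes measured, none passed limma's test after Benjamini-Hochberg adjustment over 3773 genes: 0 genes were called higher and 0 lower in double positive cells (0% each way). At an unadjusted p under 0.05 there were 266 genes (7.05%), 115 higher (3.05%) and 151 lower (4%). The smallest adjusted p was 0.0522, for CCL5. Genes that differed at least 2-fold in the same direction in both sows numbered 99 higher (2.62%) and 138 lower (3.66%), while 179 (4.74%) differed at least 2-fold in opposite directions in the sows. These counts depended on the processing, with 16 to 210 genes higher and 34 to 274 lower over the alternatives tried. The groups did not overlap, higher, for 599 genes (15.9%) and, lower, for 669 (17.7%). Over the 4 colostral samples an exact two-sided permutation test of 2 against 2, with the pairing by sow ignored, cannot give a p below 0.333. No gene could be called by such a test, and swaps within a sow alone allow fewer arrangements. Of the genes 2-fold apart in both sows, 49 higher and 91 lower were also above background on both arrays of the brighter group, and the genes with the largest differences below were taken from these.

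The sows agreed little over the table as a whole. The correlation across genes of the difference in sow 1 with that in sow 2 was 0.08 over all 3773 genes and 0.23 over the 1172 genes above background on all 4 arrays, given as a description, since genes are not independent replicates. In sow 1 alone, double positive cells had 529 genes up and 643 down by 2-fold or more, and in sow 2 alone 527 and 588. Against this, the genes furthest from 0 in both sows were few, and most of those named lie in the lower left of the plot of the sows against each other.

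**Figure D1:**
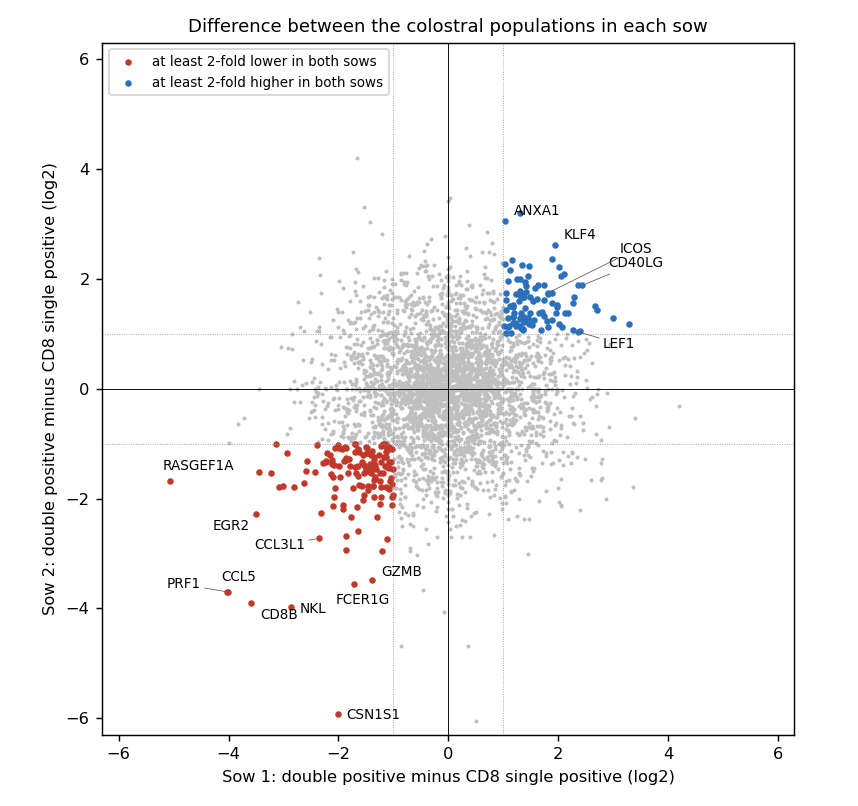
Difference in log2 intensity between colostral double positive and CD8 single positive cells in sow 1 (x axis) and sow 2 (y axis), 1 point for each gene, with dotted lines at 2-fold and 4 of the 3773 genes beyond the axes. The 138 genes at least 2-fold lower (red) and the 99 at least 2-fold higher (blue) in both sows are coloured, and CCL5, PRF1, CD8B and NKL lie near the lower left corner.

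Genes of killer cell granules were among those furthest apart in both sows. PRF1, perforin, the protein that forms pores in target cells, was at 6.96 and 6.39 in double positive cells, where 1 of 2 arrays was above background, against 10.96 and 10.09 in CD8 single positive cells, a difference of -3.85 ± 0.65 (limma adjusted p = 0.228). NKL, NK-lysin, a membrane-attacking granule protein, was at 9.21 and 7.86 in double positive cells against 12.08 and 11.84 in CD8 single positive cells, a difference of -3.43 ± 0.65 (adjusted p = 0.346 in limma). NKL was among the brighter genes even in double positive cells, where both arrays were above background.

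Of the granzymes, the proteases that perforin lets into a target cell, GZMH was the brightest, at 9.66 and 9.67 in double positive cells against 11.32 and 11.82 in CD8 single positive cells, a difference of -1.91 ± 0.54. GZMB was at 9.44 and 6.86 in double positive cells against 10.82 and 10.33 in CD8 single positive cells. Its double positive samples lay far apart, and the difference of -2.43 ± 0.85 was -1.38 in sow 1 and -3.48 in sow 2. GZMA was at 6.92 and 6.45 in double positive cells against 9.03 and 8.06 in CD8 single positive cells, a difference of -1.86 ± 0.63. GZMM, with both double positive values (6.62 and 6.70) below the detection threshold against 7.80 and 7.93 in CD8 single positive cells, was at least 1.92-fold lower. GZMK differed by -0.05. A second probe was above background for each of GZMA, GZMB, GZMH and GZMM, and it was also lower in double positive cells, by -0.95 to -2.46.

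Of 15 listed genes of the cytotoxic granule, 10 were measured. Of these, 6 (PRF1, NKL, GZMB, GZMH, GZMA and GZMM) were at least 2-fold lower in double positive cells of both sows and had an unadjusted p under 0.05 in limma. Of all genes tested, 3.66% were 2-fold lower in both sows and 4% were lower at that p, each rule taken alone. In the list 0 passed the adjusted test and 0 were 2-fold higher. Its members were chosen with earlier results of these data known. The median difference of the 10 was -1.53, against -0.02 over all genes tested. The 4 others were GZMK, RAB27A, which docks granules for release (0.28), the granule membrane protein LAMP1 (0.05), and FASLG, the death ligand (0.68). None of these 4 was 2-fold apart in both sows.

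**Figure D2:**
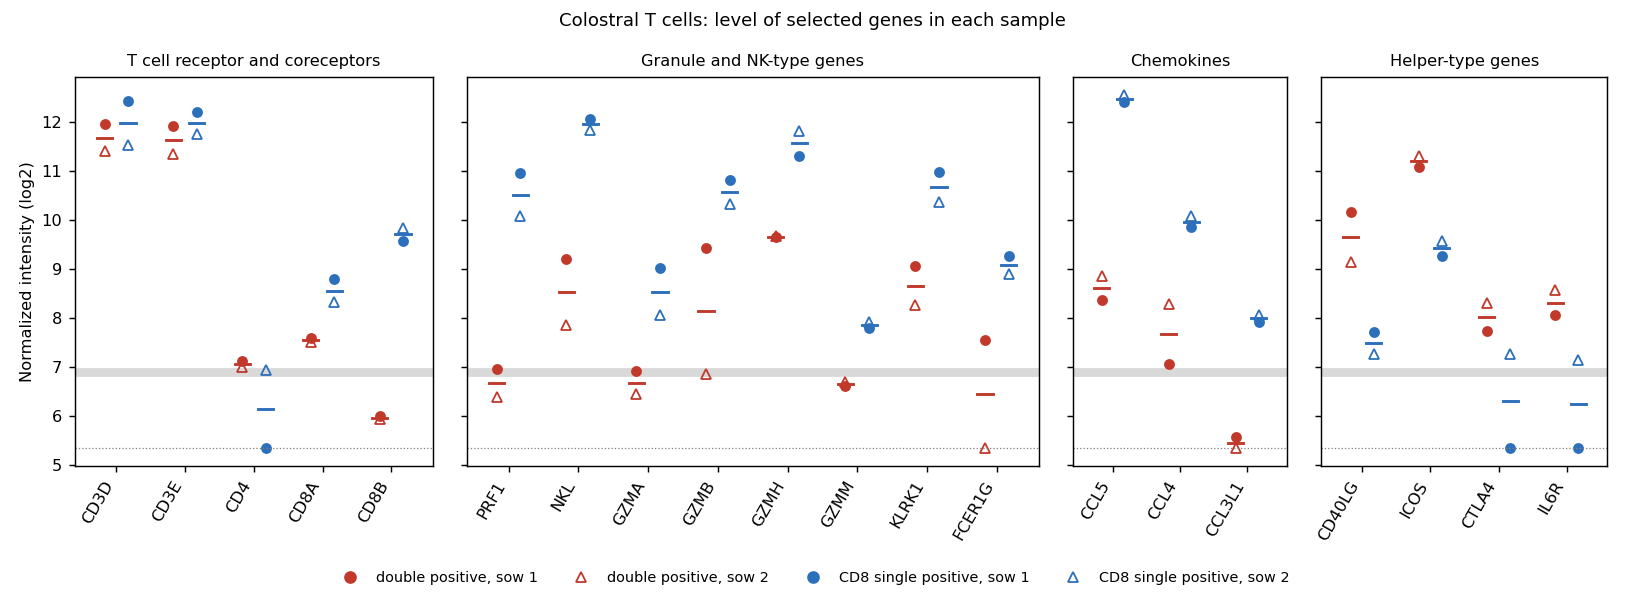
Normalized log2 intensity of coreceptor, granule, NK-type, chemokine and helper genes in each colostral sample, with double positive samples (red) left of CD8 single positive samples (blue), circles for sow 1, triangles for sow 2, bars for means, a grey band for the detection thresholds and a dotted line for the floor. CD8B, PRF1, NKL and CCL5 are lower in double positive cells and CD40LG and ICOS higher, with no overlap of the groups. Of all genes tested, 17.7% were lower and 15.9% higher with no overlap.

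CCL5, a chemokine that draws T cells and is made by killer and memory T cells, had the smallest p of the table. It was at 8.38 and 8.86 in double positive cells against 12.41 and 12.56 in CD8 single positive cells, a 14.6-fold difference (-3.87 ± 0.47; limma adjusted p = 0.0522). It was above background in all 4 samples, and 2 other probes of CCL5 differed by -3.02 and -1.46. With each pair of samples of 1 sow and population as a random block, the adjusted p of limma was 0.0463, and with the sow as a replicate block it was 0.0676. It was 2.6e-05 in limma with an intensity trend and robust moderation. With the 4 colostral samples alone, the smallest adjusted p of limma for any gene was 0.525. With the sow block added to these 4 it was 0.327, for CCL5.

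CCL4, a chemokine made by activated killer cells, was at 7.06 and 8.30 in double positive cells against 9.86 and 10.08 in CD8 single positive cells, a difference of -2.30 ± 0.60. CCL3L1, of the same chemokine group, was below the detection threshold in both double positive samples (5.58 and 5.34) and at 7.93 and 8.07 in CD8 single positive cells, at least 2.10-fold lower. XCL1, a chemokine that draws dendritic cells, differed by -1.36 (6.59 and 7.41 in double positive samples against 8.36 in both CD8 single positive samples). Its groups did not overlap, as for 17.7% of all genes tested in this direction. CXCL10, an interferon-induced chemokine, differed the other way, by 1.24. Of 8 listed effector chemokines 7 were measured, and 3 (CCL5, CCL4 and CCL3L1) were at least 2-fold lower in both sows, against 3.66% of all genes tested. In the list 0 were 2-fold higher, and the median was -1.36.

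All 7 measured genes of 16 listed NK-type receptors and adaptors had a lower mean in double positive cells, with a median of -1.83. The sows differed in size, with medians of -0.69 in sow 1 and -2.12 in sow 2. Of the 7, 5 were above background on both arrays of a population. With the floor at the 95th percentile of the negative controls the median was -1.12. KLRK1, which encodes the activating receptor NKG2D, was at 9.07 and 8.26 in double positive cells against 10.98 and 10.38 in CD8 single positive cells, a difference of -2.01 ± 0.51, with -1.96 for a second probe. FCER1G, a signalling adaptor of activating receptors, was at 7.56 and 5.34 in double positive cells against 9.27 and 8.90 in CD8 single positive cells, a difference of -2.64 ± 0.72 (limma adjusted p = 0.532). These 2 genes were at least 2-fold lower in both sows, as were 3.66% of all genes tested. GPR56 (-2.06), NCR3 (-1.83), KIT (-1.15), TYROBP (-0.87) and HCST (-0.40) were not. KIT owed its mean to 1 sample, with 9.15 in CD8 single positive cells of sow 1 and at most 6.36 in the 3 other samples.

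The CD3+CD4-CD8+ gate also takes CD8-carrying gamma delta T cells, which are common in the pig. None of 8 listed gamma delta T cell genes was measured, and the part of such cells in the differences of killer and NK-type genes was not tested.

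ID2, a transcription factor of killer and memory T cells, was at 8.47 and 9.61 in double positive cells against 10.68 and 10.79 in CD8 single positive cells, a difference of -1.70 ± 0.52, and its 4 other probes above background differed by -0.84 to -1.01. Of 6 measured lineage factors it was the 1 at least 2-fold apart in both sows. RUNX3, a factor of CD8 T cells, differed by 0.09, PRDM1, a factor of effector cells, by 0.61, and STAT4, which transmits interleukin 12 signals, by 0.65. Of the cytokines of killer and type 1 helper cells, IFNG, interferon gamma, was at 6.76 and 8.14 in double positive cells against 8.22 and 8.94 in CD8 single positive cells (-1.13 ± 0.67). TNF was at 8.27 and 10.66 in double positive cells against 10.70 and 11.05 in CD8 single positive cells (-1.41 ± 0.73). For both cytokines the double positive sample of sow 2 lay close to the CD8 single positive samples.

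Of the genes of T cell help, 2 bright ones were higher in double positive cells of both sows. CD40LG, the ligand by which helper T cells activate B cells, was at 10.17 and 9.14 in double positive cells against 7.73 and 7.26 in CD8 single positive cells, a 4.48-fold difference (2.16 ± 0.58; limma adjusted p = 0.532). ICOS, a costimulatory receptor of helper cells, was at 11.09 and 11.32 in double positive cells against 9.28 and 9.58 in CD8 single positive cells, a 3.42-fold difference (1.78 ± 0.50; adjusted p = 0.532 in limma), with 1.26 for a second probe. Both genes were above background in all 4 samples and differed by a like amount in the sows, 2.44 and 1.88 for CD40LG and 1.81 and 1.74 for ICOS.

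Of 17 listed helper signals 11 were measured, and 2 (CD40LG and ICOS) were at least 2-fold higher in both sows, against 2.62% of all genes tested. In the list 0 were 2-fold lower, and the median was 0.38. That median was 0.01 without double positive replicate 2 and with 75th percentile scaling, 0.04 with normexp correction, and 0.57 without double positive replicate 1. TNFSF8, the ligand of CD30, was at 7.43 and 7.08 in double positive cells, above background, against 6.72 and 5.34 in CD8 single positive cells, below it. The helper cytokine genes were near background: IL2 and IL17A were above it on none of the 4 arrays, and IL4, IL5, IL13, IL21 and IL22 on 1 of 4 each.

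IL6R, the interleukin 6 receptor, was at 8.06 and 8.58 in double positive cells against 5.34 and 7.14 in CD8 single positive cells, a difference of 2.08 ± 0.69, with 1.22 for a second probe. It was the 1 of 9 measured interleukin receptor genes at least 2-fold apart in both sows. Of the receptors that restrain T cells, CTLA4 was at 7.74 and 8.31 in double positive cells against 5.34 and 7.27 in CD8 single positive cells, a difference of 1.72 ± 0.70. CD274, which encodes the ligand PD-L1, was at 7.27 and 7.16 in double positive cells against 6.08 and 5.95 in CD8 single positive cells, where neither array was above background, at least 1.30-fold higher. LAG3, another inhibitory receptor, differed the other way, by -1.80, with 7.16 and 5.34 in double positive cells against 7.86 and 8.24 in CD8 single positive cells. FOXP3, the factor of regulatory T cells, was above background on 1 of 2 arrays of each population and differed by 0.43. IL10, an inhibitory cytokine, differed by 1.40 and was above background on 1 of the 4 arrays.

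All 4 measured genes of 9 listed genes of naive T cells and lymph node homing had a higher mean in double positive cells, with a median of 0.90. LEF1, which keeps T cells in the naive state, had levels of 8.68 and 8.01 in double positive cells against 6.32 and 6.97 in CD8 single positive cells, a difference of 1.70 ± 0.56, but 2 other probes of LEF1 differed by 0.15 and 0.37. CCR7, which guides T cells into lymph nodes, differed by 1.27, KLF2, which keeps T cells in circulation, by 0.52, and IL7R, the interleukin 7 receptor, by 0.48. ITGB1, an integrin chain of memory T cells, was at 12.73 and 11.30 in double positive cells against 11.28 and 10.43 in CD8 single positive cells, a difference of 1.16 ± 0.63. All 5 other probes of ITGB1 were above background and differed by 0.59 to 1.35. CCR9, the gut-homing receptor, differed by -1.40 ± 0.60, with 5.63 and 7.36 in double positive cells against 7.81 and 7.98 in CD8 single positive cells.

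Class II genes of the swine MHC, which porcine T cells can express, had lower means in double positive cells for 8 of 9 measured genes, with a median of -0.72. SLA-DQB1 was at 9.33 and 10.11 in double positive cells against 10.90 and 11.89 in CD8 single positive cells, a difference of -1.68 ± 0.56, and its 3 other probes differed by -0.73 to -1.19. SLA-DRB1 was at 11.68 and 10.26 in double positive cells against 12.76 and 11.35 in CD8 single positive cells, a difference of -1.08 ± 0.66, with -0.89 to -1.32 for 3 other probes. The sows lay at different levels for SLA-DRB1 and the population difference was -1.08 and -1.09 within them. SLA-DOB, which modifies peptide loading in B cells, differed the other way, at 8.11 and 8.0 in double positive cells against 7.03 and 6.89 in CD8 single positive cells (1.1 ± 0.46). B cells and monocytes also carry class II. CD79A, the 1 measured of 9 listed B cell genes, was at 6.59 and 9.48 in double positive cells against 7.62 and 8.76 in CD8 single positive cells. None of 5 measured monocyte genes was above background on both arrays of a population, and their summed intensities were 695 and 405 in double positive cells against 395 and 549 in CD8 single positive cells. The part of such cells in the class II differences was not tested.

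**Figure D3:**
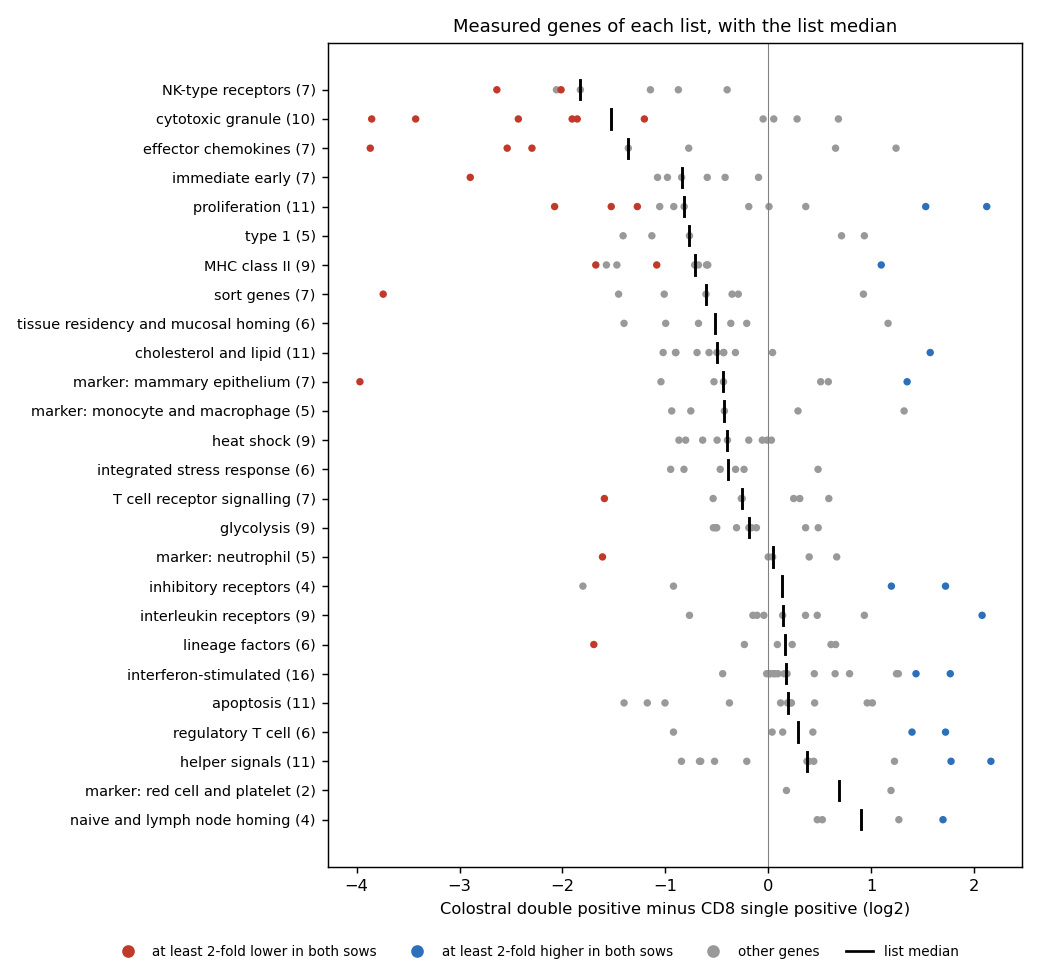
Difference in log2 intensity between colostral double positive and CD8 single positive cells for each measured gene of each list, 1 row for a list with the number of measured genes in brackets and its median as a bar. NK-type, cytotoxic granule and effector chemokine genes have the lowest medians (-1.83, -1.53 and -1.36), and coloured points are genes at least 2-fold apart in both sows.

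Genes switched on within minutes of T cell activation had lower means in double positive cells for all 7 measured, with a median of -0.84. EGR2, a transcription factor induced by the T cell receptor, was at 5.34 and 5.75 in double positive cells, below the detection threshold, against 8.85 and 8.03 in CD8 single positive cells, at least 2.86-fold lower (-2.90 ± 0.55 as measured; limma adjusted p = 0.346). It was the 1 of the 7 at least 2-fold apart in both sows. FOS, one of the brightest genes of the list, differed by -0.42, at 12.57 and 13.31 in double positive cells against 13.25 and 13.47 in CD8 single positive cells. CAMK4, a calcium-dependent kinase of T cell receptor signalling, was at 7.81 and 7.03 in double positive cells against 9.59 and 8.44 in CD8 single positive cells, a difference of -1.59 ± 0.62, while the 6 other measured signalling genes, among them LCK (-0.54) and CD2 (0.31), differed by less than 2-fold.

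The proliferation genes differed in both directions. Of 11 measured, 3 were at least 2-fold lower and 2 at least 2-fold higher in double positive cells of both sows. Over all genes tested the shares were 3.66% lower and 2.62% higher. By the mean 7 were lower and 4 higher, with a median of -0.82. The median was -0.84 in sow 1 and 0.32 in sow 2, and -0.15 without CD8 single positive replicate 1. STMN1, which controls microtubules in dividing cells, was bright, at 10.85 and 10.57 in double positive cells against 12.32 and 11.64 in CD8 single positive cells (-1.27 ± 0.50), and its 4 other probes differed by -0.73 to -2.26. AURKA, a mitotic kinase, was at least 1.99-fold lower, and AURKB, another mitotic kinase, was at least 1.55-fold higher, each with the dimmer population below background. The 2 other probes of AURKB were above background on no array. Those of AURKA differed by -0.98 and, for a probe not above background on both arrays of a population, by 0.93. PCNA, a replication clamp and the other bright gene of the list, differed by 0.01.

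The lists of stress and metabolic genes had medians between -0.50 and -0.19, and these depended on the samples used. The 9 heat shock genes had a median of -0.40 and the 6 genes of the integrated stress response one of -0.39, with 0 genes in either list 2-fold apart in both sows. Without double positive replicate 1 these medians were 0.37 and 0.01, without double positive replicate 2 they were -0.81 and -0.74, and without CD8 single positive replicate 1 they were -0.86 and -0.76. HSP70.2, an inducible chaperone, was at 11.02 and 13.47 in double positive cells against 12.72 and 13.39 in CD8 single positive cells, so that sow 1 gave -1.69 and sow 2 gave 0.09. The 9 glycolysis genes had a median of -0.19. Of 11 lipid and cholesterol genes, 9 had a lower mean in double positive cells, with a median of -0.50 (-0.83 in sow 1 and -0.35 in sow 2). The 1 at least 2-fold apart in both sows went the other way. It was PLIN2, a lipid droplet coat protein, at least 1.90-fold higher (7.99 and 7.52 in double positive cells against 6.10 and 6.26 in CD8 single positive cells). The fatty acid enzymes FASN (-0.69) and SCD (-0.90) differed less between the populations than between the sows. Among 16 interferon-stimulated genes, 14 had a higher mean in double positive cells, but the median was only 0.17, and it was 0.57 in sow 1 and 0.02 in sow 2. OAS2, an antiviral enzyme, was at 10.03 and 8.94 in double positive cells against 8.21 and 7.23 in CD8 single positive cells (1.77 ± 0.97). Its 4 other probes, none above background on both arrays of a population, differed by -0.49 to 0.53. Of 11 apoptosis genes 0 were 2-fold apart in both sows.

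The largest mean difference among the genes named by size was in a milk protein gene. CSN1S1, the alpha-S1 casein made by mammary epithelium, was at 5.34 and 5.46 in double positive cells, below the detection threshold, against 7.36 and 11.38 in CD8 single positive cells, at least 5.43-fold lower. The level was high in 1 sample, CD8 single positive cells of sow 2, and in blood the probe was also highest in CD8 single positive cells of sow 2, at 8.60. None of the 16 other probes of CSN1S1 was above background on both arrays of a colostral population. Of 10 listed mammary genes 7 were measured, and their summed intensity was 768 and 572 units in double positive cells against 803 and 3276 in CD8 single positive cells. CSN1S1 was the brightest of the 7 in the sample with the highest sum. The 7 did not go 1 way: 4 had a lower and 3 a higher mean in double positive cells. In both sows 1 was at least 2-fold lower and 1 at least 2-fold higher. The median was 1.26 in sow 1 and -0.39 in sow 2. LALBA, another milk protein, was above background on no colostral array, and CSN2 on 1 of 4. The part of mammary RNA in the other differences was not tested. Of 5 measured neutrophil genes, 3 had a higher and 2 a lower mean in double positive cells. CXCR2, the 1 above background on both arrays of a population, was at least 1.02-fold lower. It was at 5.34 and 5.35 in double positive cells against 7.03 and 6.89 in CD8 single positive cells. The 2 measured platelet genes, GP9 and ITGA2B, differed by 0.18 and 1.19. The part of such cells was not tested.

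Of the 12 genes with the largest negative differences, 9 are described above with their lists. RASGEF1A, an activator of Ras-type GTPases, was at 5.34 and 8.13 in double positive cells against 10.41 and 9.81 in CD8 single positive cells, a difference of -3.37 ± 0.90. PAQR7, a membrane progestin receptor, was at 6.08 and 6.57 in double positive cells against 9.53 and 8.08 in CD8 single positive cells, at least 3.68-fold lower. FUT8, the enzyme of core fucosylation, was at 5.69 and 6.38 in double positive cells against 8.78 and 8.16 in CD8 single positive cells, at least 2.93-fold lower. Both genes were below the detection threshold in both double positive samples.

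The 12 genes with the largest positive differences spanned 1.91 to 2.28. KLF4, a transcription factor that restrains T cell division, was at 8.23 and 9.17 in double positive cells against 6.29 and 6.54 in CD8 single positive cells, a bound of at least 3.65-fold higher, but its 3 other probes above background differed by 1.67, 0.16 and 0.01. ANXA1, an anti-inflammatory lipid-binding protein, differed by 2.05 with the tested probe and by 1.07 and -0.31 with 2 others. Its value was -0.26 under 75th percentile scaling and -0.27 under cyclic loess. Both alternatives chose the brightest probe of each gene anew, so these values may be of another probe, which was not tested. Of the rest, besides CD40LG, IL6R and AURKB, LRRC1, a scaffold protein, was at least 2.56-fold higher, and GLMN, PMVK, SEC23IP, SH3GL3, LOC100154647 and LOC100156339 were at least 1.48-fold to 1.89-fold higher. In these 7 genes both CD8 single positive samples were below background, and levels in double positive cells were at most 8.79.

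**Figure D4:**
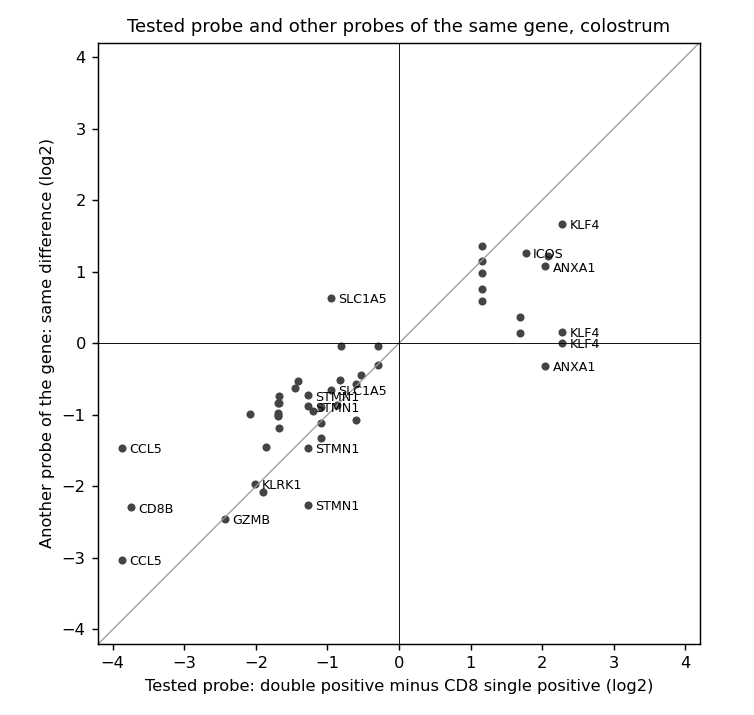
Difference in log2 intensity (double positive minus CD8 single positive cells in colostrum) of the tested probe of a named gene (x axis) and of its other probes above background on both arrays of either population (y axis; 49 probes of 27 genes), a filter that favours probes that differ. Over all 95 other probes with no filter, 78 had the sign of the tested probe and 17 the opposite sign, and 39 of the 78 reached at least 0.5 of its size.

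In blood, 0 genes passed the adjusted test of limma (0%) and 210 (5.57%) had an unadjusted p under 0.05. Of the 44 named genes at least 2-fold apart in both sows in colostrum, 36 had the same sign of the mean difference in blood. The sign was opposite for 8 (PAQR7, LOC100154647, CTLA4, SLA-DOB, LEF1, NCAPH2, STMN1 and CAMK4). In both sows 27 of the 44 had the same sign, where 23% of all genes tested were lower and 26.4% higher in both sows in blood. The share with the same sign of the mean over all genes was not computed. List members among the 44 were chosen with earlier results of these data known. In blood CCL5 differed by -3.62, PRF1 by -4.05, NKL by -3.35, CD8B by -2.96, GZMB by -3.81, CCL4 by -2.72, KLRK1 by -2.47, CD40LG by 2.61, IL6R by 1.83 and ICOS by 1.21. CTLA4 (-0.01) was above background on no blood array, so its sign there is not that of a measured level. In blood of sow 1 CCL3L1 differed by 0.01 and GZMA by 0.84, opposite in sign to colostrum. GZMA was above background on no blood array, and both CCL3L1 values of sow 1 (6.52 and 6.51) were below the detection threshold. Of the 138 genes at least 2-fold lower in both sows in colostrum, 17 (12.3%) were so in blood and 0 were 2-fold higher there. They were 21.0% of the 81 genes 2-fold lower in both sows in blood (2.15% of genes tested). Of the 99 higher in colostrum, 19 (19.2%) were 2-fold higher in both sows in blood and 1 was 2-fold lower. They were 18.6% of the 102 in blood (2.7%). Of the 12 genes with the largest negative differences in colostrum, 8 were lower by any amount in both sows in blood (23% of genes tested), and of the 12 with the largest positive differences, 9 were higher (26.4% of genes tested). Blood and colostral samples come from the same sows and carry different dyes, and across the 3773 genes the differences correlated at 0.36, as a description. The labels do not say whether a colostral and a blood sample share an array. Samples of the same sow and population deviated together from their group means between colostrum and blood, with correlations across genes of 0.22 in double positive and 0.28 in CD8 single positive cells. The part of this in the likeness of colostrum and blood was not tested.

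**Figure D5:**
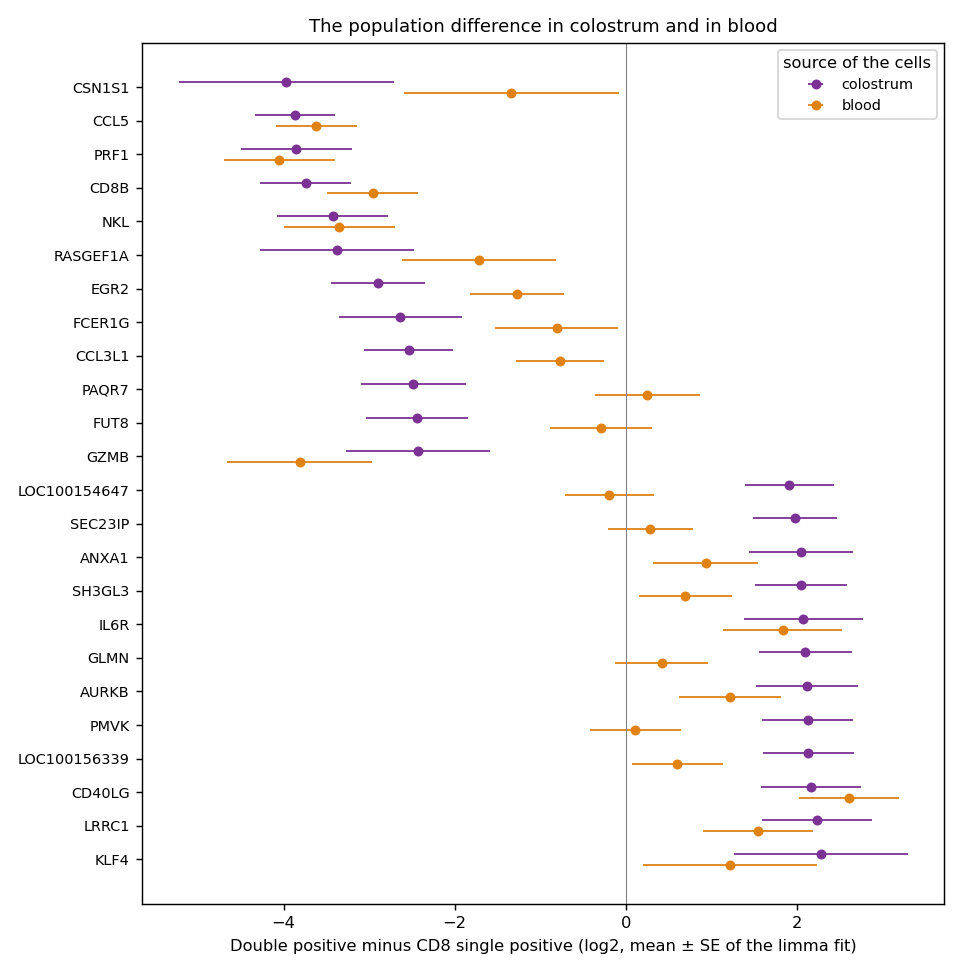
Difference in log2 intensity, double positive minus CD8 single positive cells, in colostrum and in blood (mean and SE of the limma fit, n = 2 per group) for the 12 genes with the largest negative and the 12 with the largest positive differences in colostrum. CCL5, PRF1, NKL, CD8B, GZMB, IL6R and CD40LG lie on the same side and at least 1.83 from 0 in blood, while PAQR7, FUT8, PMVK, SEC23IP and LOC100154647 lie within 0.29 of 0 there. In blood, PMVK was above background on no array, and FUT8 on 1 CD8 single positive array alone.

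The difference between colostrum and blood in the population contrast was tested for each gene, and 0 of 3773 passed limma's adjusted test (0%; smallest adjusted p 0.997), with 87 (2.31%) at an unadjusted p under 0.05. Besides CD4, these included LEF1, which differed by 1.70 in colostrum and by -0.58 in blood (2.28 ± 0.79, unadjusted p 0.0175 in limma). CAMK4 differed by -1.59 in colostrum and 1.13 in blood (-2.73 ± 0.88, unadjusted p 0.0119 in limma). PAQR7 differed by -2.48 in colostrum and 0.25 in blood (-2.73 ± 0.87, unadjusted p 0.0111 in limma), and STMN1 by -1.27 in colostrum and 0.43 in blood (-1.70 ± 0.70, unadjusted p 0.0373 in limma). GZMA, 1 of the granzymes, was apart in colostrum (-1.86) and not above background on any blood array. None of these differences passed the adjustment.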

How the data were processed

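Each sample's deposited file lists 45220 spots without a header, each with its probe and a whole-number intensity. Per the labels, 10 ng of RNA was amplified with the Ovation PicoSL WTA system. For the scanner and background correction, the method was not given in the sources used here. A matrix of log2 values that the authors deposited served as an alternative.

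Control spots were not tested, the spots of 50 repeated probes were averaged, and the 8 samples were quantile normalized over 43603 probes. Before the log2 step, values under 40.6 units (5.34 log2), the mean normalized median of 153 negative-control spots, were raised to it. The platform table gives 10278 probes 1 gene symbol, 0 probes several and 33325 none. Accessions of 6051 matched the Sscrofa11.1 gene table, which changed 443 symbols. Probes above the 30th percentile were kept and each gene took its brightest, giving 3773 genes of 4560.

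limma 3.58.1 (R 4.3.3) was fitted to 8 samples with 4 group means and no sow block (4 residual and 5.39 prior degrees of freedom). Genes with a Benjamini-Hochberg adjusted p under 0.05 were called. The sow pairs the samples per the labels, since same-numbered samples come from the same sow; the deviations of same-sow samples from their group means correlated at 0.08 between the colostral populations, 0.22 between colostral and blood double positive cells and 0.28 between colostral and blood CD8 single positive cells. The labels do not say whether 2 samples share an array. Where the dimmer group was below background on both arrays, a fold is a bound, taken against the detection threshold unless the probe itself was higher. Genes named are the 12 largest differences in each direction among those at least 2-fold apart in both sows and above background on both arrays of the brighter group, any called genes, the sort genes, and members of the lists; all members and 28 lists were chosen with earlier results of these data known. Further list members named beside these were chosen after their values were seen. The fit was tested on simulated data. Alternatives varied the normalization, background correction, floor, filter, probe choice, sow block and samples. No sequences are printed.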

Additional observations from a re-analysis of the deposited data

How the results depend on the processing

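No gene was called higher in double positive cells under any alternative run. With the sow as a replicate block over the 8 samples, 0 genes were called either way (CCL5 adjusted p = 0.0676 in limma), and with the 4 colostral samples alone 0 were called with or without that block. Leaving out any 1 colostral sample gave 0 calls, range 0 to 0. Genes called lower were 1 with cyclic loess (CCL5), 1 with each pair of 1 sow and population as a random block (CCL5), 2 with the floor at the 95th percentile of the negative controls (CCL5 and PPEF1, a phosphatase gene outside the lists, named after its values were seen), 3 with normexp background correction (CCL5, CD8B and PRF1) and 4 with an intensity trend and robust moderation (CCL5, PRF1, CD8B and NKL); the cause was not tested. The counts of genes at least 2-fold higher and lower in both sows, 99 and 138, were 26 and 44 with cyclic loess, 52 and 72 with quantile normalization of the colostral samples alone, 28 and 45 with normexp, 16 and 34 with the floor at the 95th percentile of the negative controls, 204 and 256 with each probe tested, and 210 and 274 with the median of the negative controls subtracted, an alternative chosen after seeing the data. The higher floor lifts dim values, and testing each probe adds features. The cause of the others was not tested. The test of colostrum against blood gave 0 calls throughout.

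Of 65 named genes over 20 alternatives, 11 of 1300 values turned in sign. LOC100156339 was -0.15 with a floor of 16 units, ANXA1 -0.26 with 75th percentile scaling and -0.27 with cyclic loess, CD8A 0.11 and GP9 -0.067 with the mean of a gene's probes. Alternatives that changed the normalization, background correction, floor or filter chose the brightest probe of each gene anew. The value of LOC100156339 was that of its other probe, also -0.15 in the main setting. The part of a change of probe in the ANXA1 values was not tested. Leaving out 1 colostral sample at a time, HSP70.2 ranged from -2.03 to 0.42 (without double positive replicate 1), GPI from -1.24 to 0.17 (without double positive replicate 2) and GP9 from -0.24 (without double positive replicate 2) to 0.59. CD79A ranged from -1.60 to 1.29 (without double positive replicate 1; 0.42 without CD8 single positive replicate 2) and CD3D from -0.74 to 0.16 (without CD8 single positive replicate 1). List medians of the granule, chemokine, NK-type and naive genes kept their sign in all alternatives run, while those of heat shock and integrated stress response genes turned without double positive replicate 1 (0.37 and 0.01), and that of helper signals was about 0 with the floor at the 95th percentile of the negative controls. With 31.1% to 34.7% of probes above background in the colostral samples, most probes could not be compared as measured levels.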

Other observations

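A gene outside the lists and the size rule had the largest mean difference of the 3773 genes, and it and the next one were named after their values were seen. The probe of ATRIP, a partner of the DNA damage kinase ATR, was at 5.6 and 6.01 in double positive cells of colostrum against 15.96 and 6.36 in CD8 single positive cells. In blood it was at 5.82 and 5.89 in double positive cells against 14.16 and 7.18 in CD8 single positive cells. The probe was thus far above all others in both CD8 single positive samples of sow 1.

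S100G, a calcium-binding protein of epithelium, was at 5.34 and 7.43 in colostral double positive cells against 12.97 and 7.06 in colostral CD8 single positive cells, and at 6.06 and 6.50 in blood double positive cells, against 13.06 and 5.34 in blood CD8 single positive cells. For ATRIP and S100G, the difference therefore comes from 1 sow, and CSN1S1 was likewise highest in the CD8 single positive samples of 1 sow, in both colostrum and blood.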
